A study of Mus musculus with 8 samples.

Results

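The receptors for IL-3, GM-CSF and IL-5 and the JAK2-STAT5 pathway below them were followed as 10 genes, out of 55359 in the count table. The genes were chosen by name, with earlier results of these data known. They were the ligand-binding alpha chains Il3ra, Csf2ra and Il5ra, the signalling beta chains Csf2rb and Csf2rb2, the kinase Jak2, the transcription factors Stat5a and Stat5b, and the STAT5 target genes Cish and Pim1. RNA-seq of total RNA was done on 8 libraries of wild-type peritoneal mast cells (PMCs) of the mixed mouse strain C57BL/6x129/Sv, none of them treated with a stimulus. Primary WT PMC cultures gave 6 libraries, 3 from female and 3 from male mice, described in the labels as biological replicates. PMC-303 and PMC-306 are cell lines that grew out by themselves from aged PMC cultures, each a single line with 1 library. Both lines were kept with less fetal calf serum and less stem cell factor than the primary cultures and with the same supply of IL-3, so the change to a line and the change of medium cannot be told apart.

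Each of the 3 cytokines binds its own alpha chain, and signalling needs a beta chain. The common beta chain Csf2rb serves all 3 receptors, whereas Csf2rb2 is a second beta chain of the mouse that works with the IL-3 alpha chain. Ligand binding brings together JAK2 molecules on the beta chains, JAK2 phosphorylates STAT5, and STAT5 dimers enter the nucleus and switch on target genes such as Cish, which encodes an inhibitor of the same receptors, and Pim1, which encodes a survival kinase. IL-3 is a growth factor of cultured mast cells, and IL-5 is best known as the growth factor of eosinophils.

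The 2 members whose RefSeq promoters held the palindrome recognised by STAT5 are shown, from 250 bases before to 50 bases after the transcript start in build GRCm38.p6, 5′ to 3′ on the strand of the gene. Capitals mark TTCNNNGAA, which reads the same on both strands. The Cish window is chr9:107296409-107296708 on the plus strand, and the Csf2rb2 window is chr15:78305672-78305971 on the minus strand.
Cish: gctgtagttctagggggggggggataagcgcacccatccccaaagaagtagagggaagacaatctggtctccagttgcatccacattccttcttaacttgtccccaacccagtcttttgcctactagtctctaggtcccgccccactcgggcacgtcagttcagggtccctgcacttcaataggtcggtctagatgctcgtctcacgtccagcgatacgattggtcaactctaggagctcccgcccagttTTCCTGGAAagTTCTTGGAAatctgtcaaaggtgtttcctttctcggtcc
Csf2rb2: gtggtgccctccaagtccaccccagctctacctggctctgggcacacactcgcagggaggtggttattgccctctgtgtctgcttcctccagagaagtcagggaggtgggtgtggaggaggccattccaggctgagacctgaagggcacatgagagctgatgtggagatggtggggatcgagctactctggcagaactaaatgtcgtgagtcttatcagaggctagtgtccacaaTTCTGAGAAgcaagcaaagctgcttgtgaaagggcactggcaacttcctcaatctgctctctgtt

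The Cish promoter held 2 copies, TTCCTGGAA directly at the start site and TTCTTGGAA 11 bases after it. The Csf2rb2 promoter held 1 copy, TTCTGAGAA, 15 bases before the start. Of 32851 RefSeq promoters of this length 8.3% held the motif at least once and 0.457% held at least 2 copies. Among the members 9 of 10 had a promoter in the table (12 promoters in all), and the other 7 of these genes had no match in this window. A match describes letters only, and binding was not measured.

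The libraries held 15918757 to 24180226 counts, so that 3 counts in a library corresponded to 0.123 to 0.187 CPM, the count scaled to a common library size. CPM values were also scaled for library composition, and TPM, which divide by transcript length, were used where genes were compared with each other. The mast cell markers (10 genes, summed) reached 46424.5 to 75091.7 CPM in the primary cultures, 39251 in PMC-303 and 35971 in PMC-306. Of these markers 3 fell in the lines (Kit, Fcer1a and Tpsb2, by the test described below) and 0 rose. Kit, the receptor of stem cell factor, was at 3674 ± 201 CPM (SD, n = 6) in the primary cultures, 1946 in PMC-303 and 2055 in PMC-306, and the part of this shift in the results below was not tested. Xist, expressed from the inactive X, was at 900.2 CPM in PMC-303 and 0.147 in PMC-306, against 1468 to 2055 in female and at most 0.869 in male cultures. The Y-linked genes Ddx3y, Kdm5d, Uty and Eif2s3y were at 0.659 to 1.44 CPM in PMC-303 and 51.4 to 122 in PMC-306. They were at 64.2 to 123 CPM in male and at most 0.0439 in female cultures. The labels give the lines no sex, and the authors report a male karyotype for PMC-306. The part of sex in the differences between the 2 lines was not tested. In bulk RNA, fewer cells of a type and less RNA per cell cannot be told apart.

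**Figure D1:**
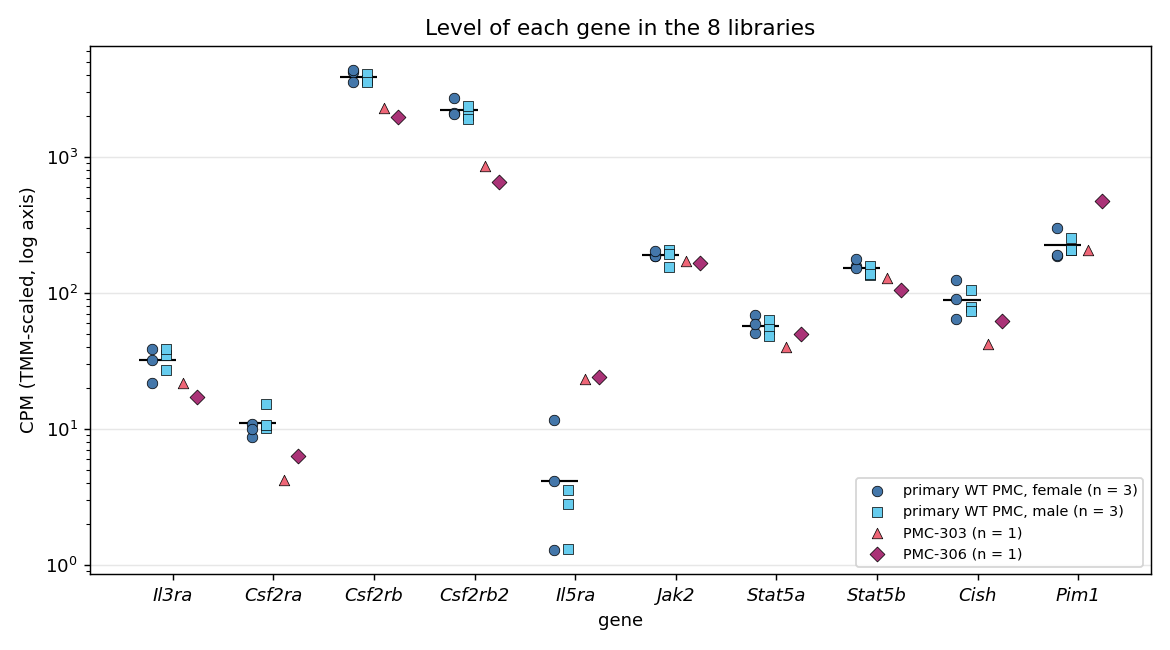
Level of each of the 10 members in every library, in CPM on a log axis. Each point is 1 library, grouped as female cultures, male cultures, PMC-303 and PMC-306, and the black line is the mean of the 6 primary cultures. Both lines sit below every primary culture for Csf2rb and Csf2rb2 and above every one for Il5ra.

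The 2 lines together were compared with the 6 primary cultures to see which members differed after transformation. Both beta chains fell, Il3ra, Csf2ra, Stat5b and Cish fell, Il5ra rose, and Jak2, Stat5a and Pim1 did not pass the test (limma, Benjamini-Hochberg adjusted p of 0.05 over 14529 genes). The background was high: 18.3% of all genes tested were called higher and 15.5% were called lower, beside 1 and 6 of the 10 members. The median log2 difference was -0.55 over the members and -0.011 over all genes. The calls differed in strength. Csf2rb and Csf2rb2 passed under all 17 alternative settings, Csf2ra under 15 and Il5ra under 14, while Il3ra passed under 6, Cish under 7 and Stat5b under 8.

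The alpha chains differed from each other in direction. Il3ra, which binds IL-3 (chr14:8113752-8123508, minus strand, in GRCm39 with GENCODE annotation like all gene positions that follow), was at 32.2, 38.7 and 21.7 CPM in female cultures 1 to 3 and at 26.8, 34.8 and 38.8 in male cultures 1 to 3. It was at 21.7 CPM in PMC-303 and 17.0 in PMC-306. PMC-306 lay clearly below the primary cultures, whereas PMC-303 was almost level with the lowest of them, female culture 3. The log2 difference was -0.71 ± 0.23 (SE, limma, adjusted p = 0.0395), and the call was lost, with adjusted p between 0.0606 and 0.222, when any of female cultures 1 and 2, male cultures 2 and 3, PMC-303 or PMC-306 was left out.

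Csf2ra, the alpha chain of the GM-CSF receptor (chr19:61212395-61216892, minus strand), was expressed at a lower level. It was at 10.9, 8.74 and 9.91 CPM in the female cultures and at 10.2, 10.7 and 15.3 in the male cultures, against 4.20 in PMC-303 and 6.29 in PMC-306. Both lines were below all 6 cultures, by 2.57-fold and 1.73-fold from their mean. The lines differed from the cultures by a log2 of -1.05 ± 0.23 (SE, limma, adjusted p = 0.00793). Without PMC-303 it was -0.77 with adjusted p = 0.0665.

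Il5ra, the alpha chain of the IL-5 receptor (chr6:106686622-106725998, minus strand), was the only member that rose. In the primary cultures it was low and uneven, at 4.13, 1.27 and 11.7 CPM in the female and 2.81, 3.54 and 1.31 in the male cultures. The lines were nearly equal, at 23.1 CPM in PMC-303 and 24.0 in PMC-306. Both lay above every culture, 5.50-fold and 5.71-fold above the mean of the 6. These folds, log2 2.46 and 2.51, use the mean of the CPM values. The fit uses the mean of their logs, and there the log2 difference was 2.90 ± 0.73 (SE, limma, adjusted p = 0.0160). Female culture 3 stood closest to the lines, and without it the log2 difference was 3.28 (adjusted p = 0.00251). With only 1 line in the fit the difference was of like size, 2.93 without PMC-303 and 2.87 without PMC-306, but did not pass (adjusted p = 0.0679 and 0.0738).

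Eosinophils also express Il5ra, and their markers were checked beside it. The 7 eosinophil markers summed to 0.571 to 2.45 CPM in the primary cultures, 0.329 in PMC-303 and 1.08 in PMC-306. The granule protein genes Epx, Ear1, Ear2 and Ear6 were at 0 counts in all 8 libraries, so they do not set the lines apart. Prg2 was at 0 counts in both lines and at most 0.0527 CPM in the primary cultures. Ccr3 was at 0.527 to 2.45 CPM in the primary cultures, 0.329 in PMC-303 and 0.737 in PMC-306. Siglecf was at most 0.105, 0 and 0.344 CPM. The basophil markers summed to 279 to 578 CPM in the primary cultures, 269 in PMC-303 and 291 in PMC-306. Nearly all of this was Cd200r3, at 277 to 575, 266 and 291 CPM. Mcpt8 was at 1.63 to 3.78 CPM in the primary cultures, 3.17 in PMC-303 and 0.246 in PMC-306, and Prss34 was at most 0.0622 CPM.

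The beta chains carried by far the most RNA of the receptor genes. Csf2rb, the common beta chain (chr15:78209952-78238047, plus strand), was at 4198, 4373 and 3558 CPM in the female cultures and at 3674, 4054 and 3578 in the male cultures. It was at 2295 CPM in PMC-303 and 1961 in PMC-306, which is 58.8% and 50.2% of the primary mean of 3906 ± 349 (SD, n = 6). Neither line overlapped the primary cultures, which differed little among themselves. In the test the log2 difference was -0.88 ± 0.14 (SE, limma, adjusted p = 0.00224).

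Csf2rb2, the beta chain of the IL-3 receptor alone (chr15:78166707-78189921, minus strand), fell further. It was at 2728, 2110.2 and 2087 CPM in the female cultures and at 2038, 2354 and 1910.1 in the male cultures. In PMC-303 it was at 854 CPM and in PMC-306 at 656, or 38.7% and 29.8% of the primary mean of 2205 ± 295 (SD, n = 6). Both lines were again far below every culture. The test gave a log2 difference of -1.55 ± 0.16 (SE, limma, adjusted p = 0.000255).

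The 2 beta chain genes are neighbours that point away from each other, 20 kb apart with 0 protein-coding genes between them, and their transcripts are alike. Of the 31-base words of the Csf2rb transcript 28.9% also occur in Csf2rb2, and 29.1% of those of Csf2rb2 occur in Csf2rb, with a longest shared run of 242 bases. The authors' counting had to divide such reads between the genes, so the split between the chains is less certain than their sum. The sum was 6110.4 ± 575 CPM (SD, n = 6) in the primary cultures, 3149 in PMC-303 and 2617 in PMC-306, 1.94-fold and 2.33-fold lower. As a share of all counts the beta chains took 0.526% to 0.680% in the primary cultures, 0.330% in PMC-303 and 0.280% in PMC-306.

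The unequal fall of the beta chains was read within each library, where no scaling between libraries enters. Csf2rb counts exceeded Csf2rb2 counts 1.79-fold ± 0.180 (SD, n = 6, range 1.54 to 2.07) in the primary cultures, 2.69-fold in PMC-303 and 2.99-fold in PMC-306. Both lines lay above all 6 cultures. The 2-sided exact permutation test gave p = 0.0714, the smallest that 2 against 6 libraries can give, so this design cannot reach 0.05 for a single ratio.

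Per length, the beta chains also lost part of their excess over the alpha chains. The summed TPM of Csf2rb and Csf2rb2 was 40.9 ± 6.85 times (SD, n = 6, range 30.9 to 51.9) that of the 3 alpha chains in the primary cultures, 23.2 times in PMC-303 and 22.2 times in PMC-306 (exact permutation p = 0.0714, 2-sided). The alpha sum itself was 37.7 ± 3.97 TPM (SD, n = 6), 35.7 and 32.1 (exact permutation p = 0.214). A difference in the alpha sum was thus not shown at this number of libraries.

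**Figure D2:**
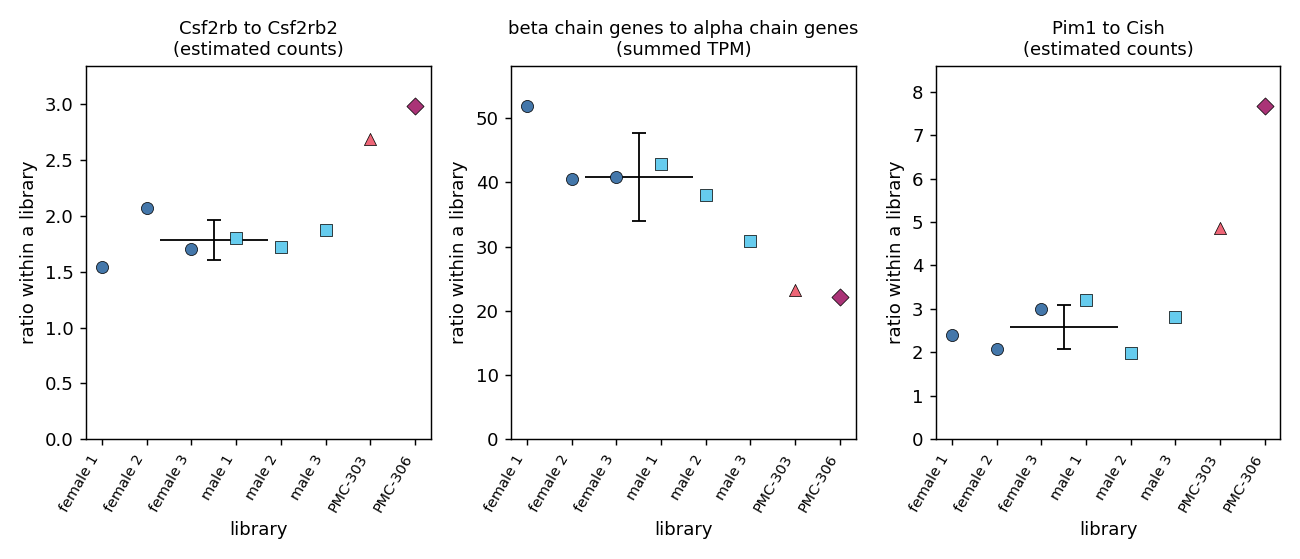
Ratios read within each library: Csf2rb to Csf2rb2 counts, summed beta chain to alpha chain TPM, and Pim1 to Cish counts. Points are libraries, and the bar marks the mean ± SD of the 6 primary cultures. In each panel PMC-303 and PMC-306 fall outside the range of the primary cultures, above it in the first and last panel and below it in the middle one.

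Within that alpha chain sum the make-up differed. Il5ra took 4.44% ± 4.50 (SD, n = 6, range 1.05 to 13.2) of the alpha chain TPM in the primary cultures, 28.6% in PMC-303 and 34.3% in PMC-306. Csf2ra took 25.3% ± 5.26 (SD, n = 6), 11.7% and 16.0%, and for both genes the lines lay outside the primary range (exact permutation p = 0.0714 for each, 2-sided). Il3ra remained the most abundant alpha chain in all 8 libraries, with 70.3% ± 8.66 (SD, n = 6, range 54.5 to 79.2), 59.7% in PMC-303 and 49.7% in PMC-306 (p = 0.143 by the same exact test). PMC-303 was within the primary range for this share. Female culture 3 held the highest primary share of Il5ra, and the Il5ra values of the primary cultures rest on low counts.

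**Figure D3:**
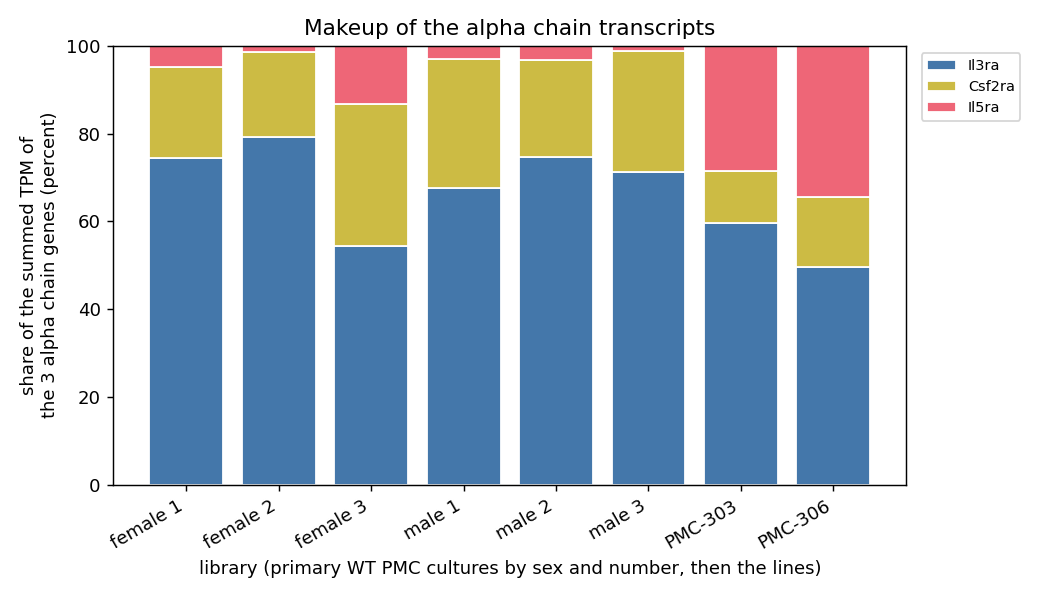
Share of Il3ra, Csf2ra and Il5ra in their summed TPM, in percent, as 1 stacked bar for each library. Il5ra takes 28.6% in PMC-303 and 34.3% in PMC-306, against 1.05% to 13.2% in the primary cultures.

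Jak2, the kinase bound to the beta chains (chr19:29228677-29290505, plus strand), was at 187, 186 and 204 CPM in the female and 207, 192 and 155 in the male cultures. It was at 172 CPM in PMC-303 and 167 in PMC-306, inside the primary range for both. Jak2 differed by a log2 of -0.15 ± 0.11 (SE, limma, adjusted p = 0.317), and no alternative setting called it.

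Stat5a and Stat5b, the STAT5 transcription factors, lie 8.59 kb apart and also point away from each other (Stat5a at chr11:100750177-100776065, plus strand, and Stat5b at chr11:100671556-100741589, minus strand). Stat5b was at 158, 153 and 177 CPM in the female and 157, 136 and 137 in the male cultures, against 129 in PMC-303 and 105 in PMC-306. Both lines were below all cultures, PMC-303 by a small margin. The log2 difference of -0.39 ± 0.12 (SE, limma, adjusted p = 0.0321) did not pass with total counts as library sizes (adjusted p = 0.112), with TPM (0.281) or without PMC-306 (0.236), female cultures 1 or 2 or male culture 1 (0.0513 to 0.0586). Stat5a was at 68.5, 50.3 and 58.9 CPM in the female and 63.2, 54.3 and 47.7 in the male cultures, and PMC-306 at 50.1 lay among them. PMC-303, at 40.0, lay below. Its log2 difference was -0.34 ± 0.15 (SE, limma, adjusted p = 0.114).

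The STAT5 genes share sequence too (21.3% of the 31-base words of Stat5a occur in Stat5b), and their sum was 210.3 ± 20.5 CPM (SD, n = 6, range 185 to 236) in the primary cultures, 169 in PMC-303 and 155 in PMC-306 (exact permutation p = 0.0714, 2-sided). In TPM the sum was 51.0 ± 8.45 (SD, n = 6), 42.3 and 41.5 (exact permutation p = 0.214). Stat5b exceeded Stat5a per length by 2.06-fold ± 0.139 (SD, n = 6) in the primary cultures, by 2.42-fold in PMC-303 and by 1.55-fold in PMC-306. The lines lay on opposite sides of the primary cultures in this ratio.

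The targets Cish and Pim1 did not move together. Cish, the inhibitor with the motif pair in its promoter (chr9:107173225-107179983, plus strand), was at 125, 89.8 and 63.7 CPM in the female and 79.1, 104 and 73.5 in the male cultures. It was at 42.3 CPM in PMC-303 and 61.6 in PMC-306. PMC-306 lay just below female culture 3, the lowest culture. The log2 difference was -0.77 ± 0.25 (SE, limma, adjusted p = 0.0448), and leaving out female culture 1 or 2, male culture 1 or 2 or PMC-303 gave adjusted p between 0.0511 and 0.284.

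Pim1, the survival kinase (chr17:29709581-29715086, plus strand), was at 301, 186 and 191 CPM in the female and 254, 208 and 208 in the male cultures. PMC-303, at 206 CPM, lay among them, and PMC-306, at 473, lay above all. The joint log2 difference was 0.49 ± 0.30 (SE, limma, adjusted p = 0.233). It was 1.10 without PMC-303 (adjusted p = 0.0138) and -0.11 without PMC-306 (adjusted p = 0.779), so the lines gave different values for this gene. Read within a library, Pim1 counts exceeded Cish counts 2.58-fold ± 0.503 (SD, n = 6, range 1.99 to 3.21) in the primary cultures, 4.86-fold in PMC-303 and 7.68-fold in PMC-306, above the range in both lines (exact permutation p = 0.0714, 2-sided).

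**Figure D4:**
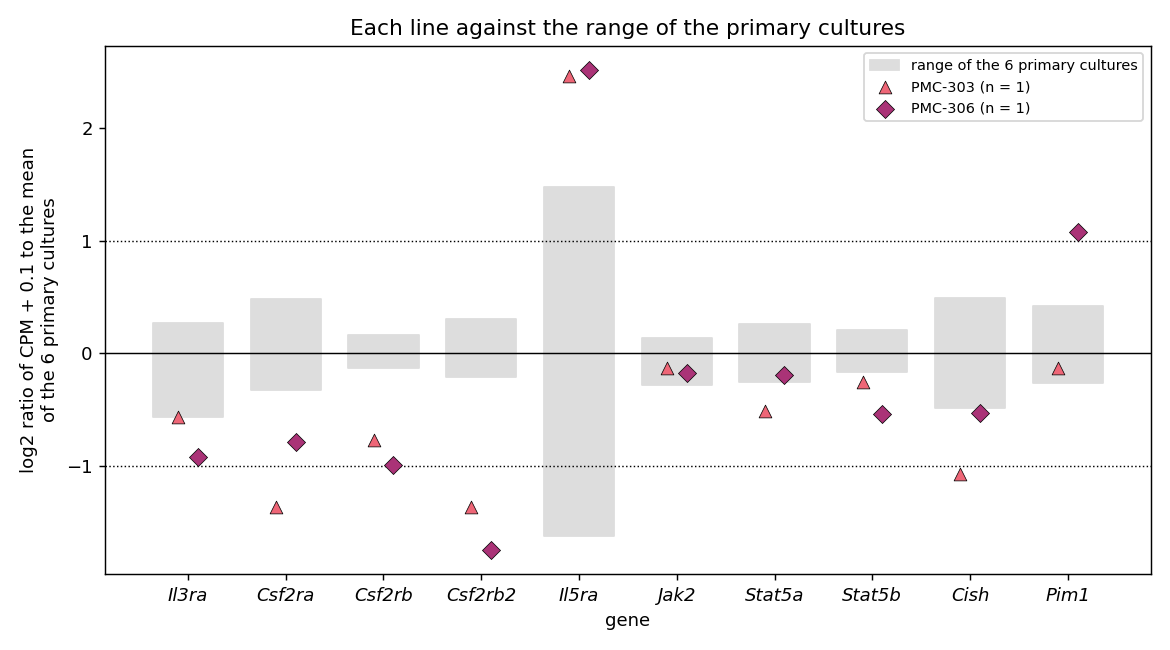
Log2 ratio of PMC-303 and PMC-306 to the mean of the 6 primary cultures for each member, with the range of the primary cultures in grey and dotted lines at a 2-fold difference. Il5ra lies above the grey range in both lines, Pim1 in PMC-306 alone, and Csf2rb2 lies below the lower dotted line in both.

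Each line is 1 library, and was therefore compared with the lowest and highest of the primary cultures without a test. Of the members, 1 (Il5ra) lay above the range in both lines beside 23.0% of all genes, and 6 (Il3ra, Csf2ra, Csf2rb, Csf2rb2, Stat5b and Cish) lay below it in both beside 20.1%. In PMC-303, Il5ra was at least 2-fold above the primary mean and above the range, beside 10.4% of genes. Csf2ra, Csf2rb2 and Cish were at least 2-fold below, beside 8.09%. In PMC-306, Il5ra and Pim1 were above by these criteria, beside 10.2% of genes, and Csf2rb2 alone was below, beside 9.19%. Csf2rb stood just inside the limit in PMC-306, 1.99-fold lower.

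PMC-306 and PMC-303 were compared with each other by the same 2-fold limit. Pim1 was 2.30-fold higher in PMC-306, and 6.19% of all genes were higher by this limit. Of the other members 0 were at least 2-fold apart (6.92% of genes were lower in PMC-306). Csf2ra and Cish were higher in PMC-306 by 0.57 and 0.54 on the log2 scale, Stat5a by 0.33, and Csf2rb2 and Il3ra differed by -0.38 and -0.35. Il5ra was level (log2 difference 0.054), as was Jak2 (-0.045).

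Of the 9 macrophage markers, only Adgre1 and Icam2 lay above the primary range in PMC-306. Adgre1 was named after its value was seen. The 9 macrophage markers summed to 7.75 to 68.9 CPM in the primary cultures, 8.93 in PMC-303 and 452 in PMC-306, of which Adgre1 alone gave 426. Of the 4 macrophage markers that could be tested, 1 rose in both lines together and 0 fell. This was Icam2, an adhesion molecule, at 0.0879 to 1.10 CPM in the primary cultures, 1.77 in PMC-303 and 10.6 in PMC-306 (log2 3.22, limma, adjusted p = 0.0193, and 1.97 with adjusted p = 0.180 without PMC-306). Lyz2 lay below the primary range in both lines, at 0.247 CPM in PMC-303 and 1.13 in PMC-306 against 1.18 to 18.0 (limma, adjusted p = 0.0955). Cd68 was within the range in both lines. Csf1r, Cd14 and C1qc were at most 0.26 CPM in any library, and C1qa and C1qb were at 0 counts in both lines. The part of these markers in the higher Pim1 level of PMC-306 was not tested.

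Female and male primary cultures were compared as the labels give their sex. No member passed, and 6 of 13710 genes did (0.0438%, limma, adjusted p of 0.05). At an unadjusted p below 0.05 there were 456 genes, of which 0 were members. The largest difference was that of Il5ra, 0.73 on the log2 scale in the direction of the female cultures, and it was -0.031 without female culture 3. The others were between -0.27 for Csf2ra and 0.18 for Stat5b. With 3 cultures of each sex, the tests bear only on differences much larger than the spread between cultures.

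Levels were also ordered among the members, per length. In the primary cultures Csf2rb stood first with 939 ± 135 TPM (SD, n = 6), rank 105 of all genes by mean TPM, followed by Csf2rb2 with 594 ± 118 and Pim1 with 147 ± 32.1. Jak2 (43.8 ± 7.95 TPM) and Stat5b (34.3 ± 5.71) came next. Their means differed by less than the sum of their SDs, but Jak2 was above Stat5b in every library. Il3ra (26.6, range 20.2 to 33.4) and Cish (25.8 ± 7.14) were not separable by their spread. Stat5a (16.7 ± 2.91), Csf2ra (9.45 ± 1.76) and Il5ra (1.65 ± 1.66) closed the order. In PMC-306 Pim1, with 346 TPM (rank 294), stood above Csf2rb2, with 188 TPM (rank 531), whereas in PMC-303 Csf2rb2 was at 245 TPM and Pim1 at 129. Il5ra went from rank 11105 in the primary cultures to 7163 in PMC-303 and 6873 in PMC-306, with 10.2 and 11.0 TPM, and thereby passed Csf2ra (4.18 and 5.14 TPM) in both lines.

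The transcripts behind the gene levels were taken from the authors' estimated transcript counts. The main Csf2rb transcript held 93.8% ± 0.735 (SD, n = 6) of the gene's counts in the primary cultures, 96.1% in PMC-303 and 93.3% in PMC-306. For Csf2ra, PMC-303 stood apart from all other libraries. The canonical transcript ENSMUST00000076046 held 30.1% to 47.8% of the gene's counts in the primary cultures and 48.0% in PMC-306 but 0% of 102 counts in PMC-303, where ENSMUST00000237386, at 0% in the 7 other libraries, held 31.5%. The Csf2ra TPM of PMC-303, and so its share of the alpha chains, rests on the lengths of these transcripts. For Cish, the transcript ENSMUST00000165664 held 70.5% ± 3.91 (SD, n = 6), 69.8% and 76.3%. The canonical transcript ENSMUST00000085102 held 12.3% ± 4.10 (SD, n = 6), 13.6% and 8.05%, so the gene's counts are only in part those of the canonical transcript. For Pim1, the transcript ENSMUST00000234294 held 22.1% ± 1.77 (SD, n = 6) in the primary cultures and less in both lines, 18.5% and 16.2%. The Pim1 transcript ENSMUST00000024811 held 33.5% ± 2.62 (SD, n = 6) in the primary cultures, 50.2% in PMC-303 and 34.5% in PMC-306. The split between transcripts of 1 gene is an estimate from shared reads and was not tested.

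The rest of the pathway was read from gene lists, with the background percentages of called genes given above. The ligands were not made by these cells at a level that could be measured well. Il3 was at 0 counts in all 8 libraries, which allows up to 3 counts or 0.187 CPM in a library. Il5 was at most 0.0982 CPM, and Csf2, which encodes GM-CSF, was between 0.247 and 0.747 CPM with a log2 difference of -0.33 (limma, adjusted p = 0.560). Of the 8 other JAK and STAT genes 1 rose and 1 fell, with a median of -0.13. Stat4, at 90.7 ± 4.36 CPM (SD, n = 6), rose to 114 in PMC-303 and 143 in PMC-306, and Stat3, the transcription factor of IL-6 type cytokines, fell by 0.69 on the log2 scale (adjusted p = 0.0270), with 122 ± 19.0 CPM (SD, n = 6) in the primary cultures, 94.1 in PMC-303 and 59.5 in PMC-306. Stat3 passed under 11 of 17 alternatives, and its log2 difference was -0.36 without PMC-306 (limma, adjusted p = 0.236) and -1.02 without PMC-303. It was also lost without female culture 1 (adjusted p = 0.0506). Stat4 was at 0.33 on the log2 scale without PMC-306 and still passed (adjusted p = 0.0315).

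Of the 12 adaptors and kinases near the receptor that were tested, of 13 listed, 3 rose, 3 fell and 6 did not pass, with a median log2 difference of -0.17. Pik3cd, a catalytic subunit of phosphoinositide 3-kinase, rose by 0.73 ± 0.22 (SE, log2; limma, adjusted p = 0.0362), with 388 ± 47.9 CPM (SD, n = 6) in the primary cultures, 461 in PMC-303 and 882 in PMC-306. It passed under 8 of 17 alternatives, and its log2 difference was 1.19 without PMC-303 (adjusted p = 0.00240) and 0.26 without PMC-306 (adjusted p = 0.313). The call was also lost without female cultures 2 or 3 or male cultures 2 or 3. The regulatory subunit gene Pik3r1 fell by 0.59 on the log2 scale (adjusted p = 0.00790, and 0.0707 without PMC-306). The adaptor Shc1 rose by 0.51 on the log2 scale (adjusted p = 0.00827, and 0.0625 without PMC-303), while Gab2 and the exchange factor Sos1 fell by 0.46 and 0.42 (adjusted p = 0.0291 and 0.0143). Gab2 and Sos1 each passed under 12 of 17 alternatives and were both lost without PMC-306 (adjusted p = 0.137 and 0.113), Gab2 also without PMC-303 or male culture 3 (adjusted p between 0.0517 and 0.137).

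Of the 19 brakes of the pathway, all tested, 1 rose, 2 fell and 16 did not pass, with a median of -0.031. Socs5 fell, from 96.6 ± 5.79 CPM (SD, n = 6) to 42.3 in PMC-303 and 63.1 in PMC-306 (log2 -0.90 ± 0.14, SE, limma, adjusted p = 0.00155). The phosphatase gene Ptpn6 rose by 0.55 (adjusted p = 0.0149), and the ubiquitin ligase gene Cbl fell by 0.54 on the log2 scale (adjusted p = 0.0215). Without PMC-306 neither passed, with 0.36 for Ptpn6 (adjusted p = 0.131) and -0.37 for Cbl (adjusted p = 0.168). Socs2, a STAT5 target and inhibitor like Cish, was at 95.2 ± 9.10 CPM (SD, n = 6) in the primary cultures and at 83.8 and 101 in the lines. It was named after its values were seen.

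Of the other STAT5 targets 17 of 19 listed were tested, and 2 rose, 6 fell and 9 did not pass, with a median of -0.047. The list shares Socs1, Socs2 and Socs3 with the brakes. The 3 D-type cyclin genes, which drive entry into the cell cycle, all fell. Ccnd2 was at 2669 ± 355 CPM (SD, n = 6) in the primary cultures, 940.4 in PMC-303 and 528 in PMC-306 (log2 -1.91 ± 0.22, SE, limma, adjusted p = 0.000378). Ccnd1 was at 634 ± 248, 205 and 156 CPM, and Ccnd3 at 302 ± 33.7, 189 and 85.2. Bcl2, which protects cells from apoptosis, was at 303.4 ± 34.2 CPM (SD, n = 6), 131 and 72.8. Pim3, a relative of Pim1, rose from 8.74 ± 0.755 CPM (SD, n = 6) to 20.8 and 34.1 (log2 1.60, limma, adjusted p = 0.000384). For Ccnd2, Ccnd1, Bcl2 and Pim3 the call held under all 17 alternatives and for Ccnd3 under 15, although Ccnd3 moved from a log2 of -1.24 to -1.82 without PMC-303 and to -0.67 without PMC-306 (limma, adjusted p = 0.000339 and 0.0174).

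Among other type I cytokine receptors and the IL-10 receptor chains, 11 of 19 genes were tested, and 1 rose, 3 fell and 7 did not pass. Their median log2 difference was -0.52, close to the -0.55 of the members, so a lower median was not particular to the members. Il6st, the signalling chain of the IL-6 family, fell from 16.8 ± 2.58 CPM (SD, n = 6) to 5.60 in PMC-303 and 1.72 in PMC-306 (log2 -2.38, limma, adjusted p = 0.00173). Il10ra fell from 256 ± 26.9 CPM (SD, n = 6) to 115 and 73.9 (log2 -1.47, adjusted p = 0.000397), and Il10rb fell by 0.52 on the log2 scale (adjusted p = 0.0221, and 0.185 without PMC-303, where the log2 difference was -0.29). Il9r, the receptor of a mast cell growth factor, was at 41.6 ± 32.0 CPM (SD, n = 6) in the uneven primary cultures, 122 and 155 in the lines (log2 2.03, adjusted p = 0.0374), and passed under 9 of 17 alternatives. The call was lost without female culture 3, male culture 1 or 2 or either line (adjusted p between 0.0576 and 0.160).

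**Figure D5:**
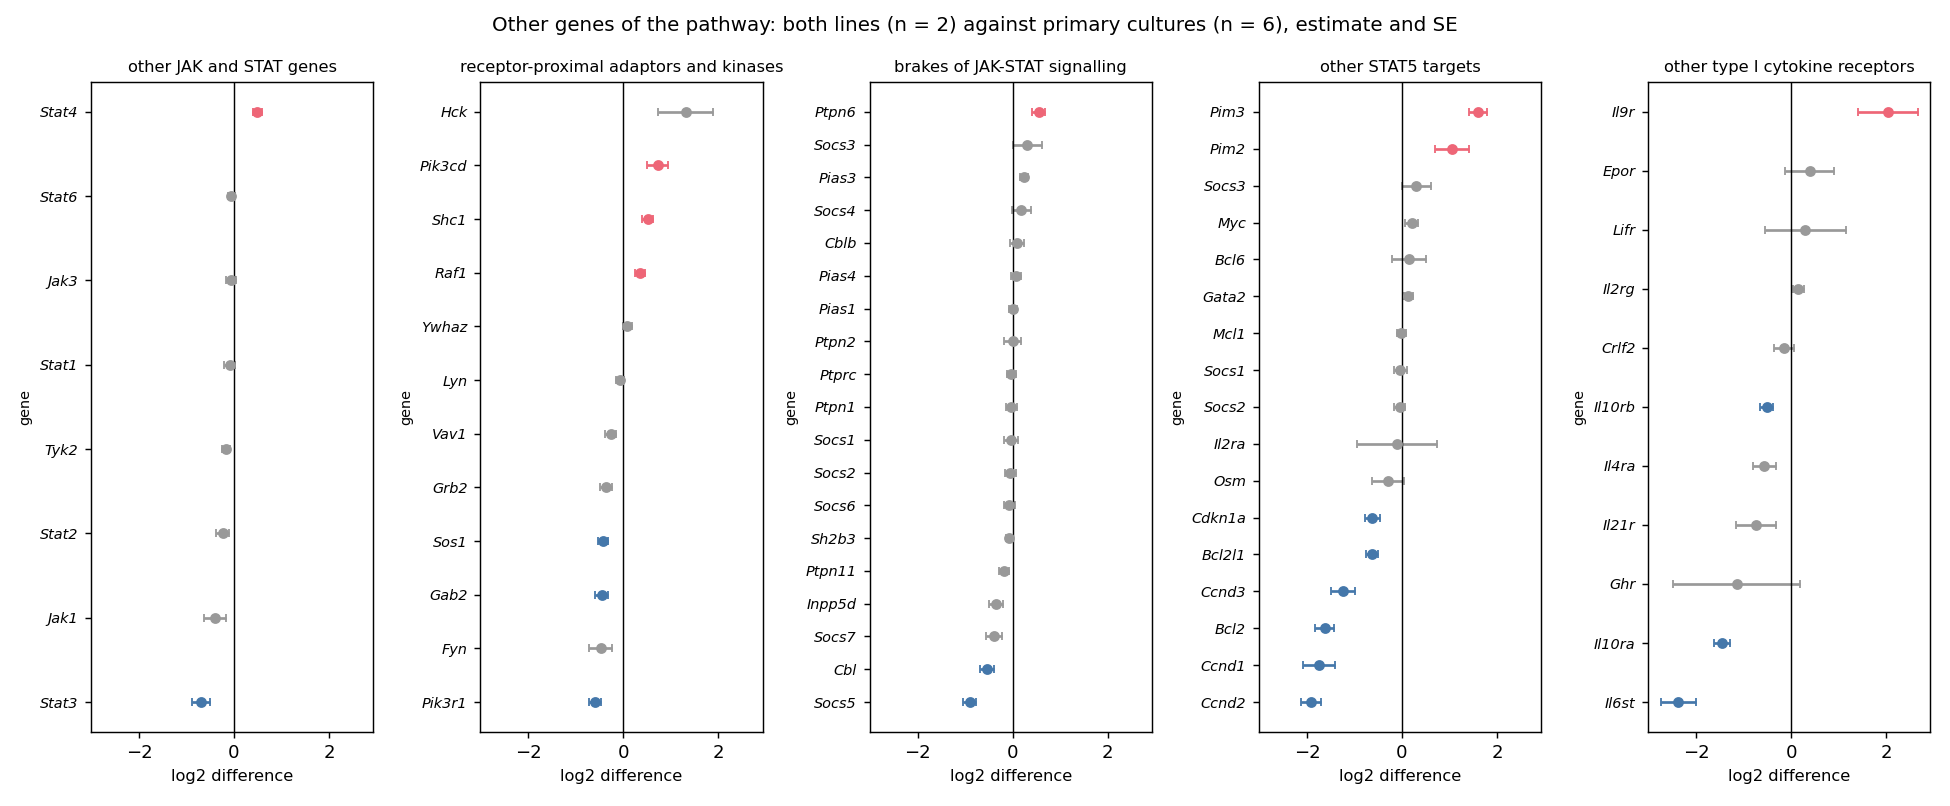
Log2 difference ± SE of both lines from the primary cultures for the tested genes of 5 lists, 1 panel for each list. Red marks genes called higher, blue genes called lower and grey genes that were not called. Ccnd2, Ccnd1, Bcl2 and Ccnd3 are called lower and Pim3 higher in the panel of STAT5 targets.

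Genes whose levels ran most like those of a member over the 8 libraries were listed as a description, by Pearson's r of log2(CPM + 0.1) among 8750 genes of at least 10 CPM. Csf2rb was nearest to Rgl2 (r = 0.996), Clcn7 (0.994) and Uba7 (0.993), and Csf2rb2 to Neu1 (0.994), Tbc1d5 (0.994) and Btbd9 (0.991). For Il3ra they were Ttc19 (0.982), 4930503L19Rik (0.967) and Cbr1 (0.967). Cish was nearest to Sh3bp2 (0.959) and Pim1 to Tex9 (0.965). The 8 points include the contrast between lines and cultures, and no p is given.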

How the data were processed

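Total RNA of 2 PMC lines and 6 primary PMC cultures (3 female, 3 male) was sequenced with a stranded kit. According to the submitters' processing notes the authors trimmed reads with Trim Galore 0.6.7, aligned them with STAR 2.7.9a to GRCm39 and estimated gene and transcript counts and TPM with Salmon 1.5.2 in the nf-core RNA-seq workflow. The deposited count and TPM tables had passed through a spreadsheet program that rewrote some numbers (3.37% of the gene count cells). Dates were turned back into decimals and grouping points removed, after which 99.7% of gene counts came within 0.2 of the sum of their transcript counts. For TPM the decimal point was placed with the help of the counts in 21.8% of cells. Because the tables are no longer untouched counts, no count model was used.

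Counts were scaled by TMM factors (0.941 to 1.07) and tested as log2(CPM + 0.1) with limma 3.58.1 (mean-variance trend) in R 4.3.3, with Benjamini-Hochberg adjustment over all genes tested and a threshold of 0.05. Fold changes are on that scale, which understates the change of low genes. Genes needed a count of about 10 in at least 2 libraries (3 for sex) and 15 in total, which all 10 members passed in the comparison of lines. The test was checked on simulated data. The lines entered as 2 replicates although each is 1 culture. No primary culture repeated another within sampling noise. Depth was 15918757 to 24180226 counts, and intervals for low genes reflect counting as well as culture.

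The members and lists were chosen with earlier results of these data known. Named genes are the members, the called genes of each list (the 5 with the largest change where more were called), Kit, and for members of at least 10 CPM up to 3 genes with the highest correlation. Others are said to be chosen later. Alternatives were other scalings, offsets, filters, voom weights, TPM, 1 sex as control and each library left out.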

Additional observations from a re-analysis of the deposited data

Results flagged for a closer look

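Among the 10 members over the 6 primary cultures, 2 values lay apart from the rest by Dixon's criterion on CPM. The criterion is a gap to the nearest culture over the whole range above the 95% critical value, which chance exceeds in about 1 in 20 groups. It was taken on CPM and not on the log2 scale that the fit used. Csf2ra in male culture 3 was at 15.3 CPM, with a gap of 0.674 of the range. Without this culture the log2 difference of the lines was -0.95 (limma, adjusted p = 0.00740). Il5ra in female culture 3 was at 11.7 CPM, with a gap of 0.725 of the range, and the values without it stand beside the gene above.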

How the results depend on the processing

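Counts of genes called higher in the lines were 1327 against female cultures alone and 1943 to 2570 with 1 library left out, against 2665. Counts called lower were 980 with TPM, 833 against female cultures alone, 1241 against male cultures alone and 1598 to 2094 with 1 library left out, against 2255. With total counts as library sizes 3406 genes were higher and 1665 lower, and with TPM 2373 were higher. These scalings moved the median of all genes by 0.107 (total counts) and 0.138 (TPM). The members kept their direction under both. Of the members, 3 were called lower with total counts, without the filter and with TPM, 2 against female cultures alone and 3 to 6 with 1 primary culture left out. Beside them, 1665 of 14529 genes were called lower with total counts, 1768 of 30847 without the filter and 980 of 14529 with TPM. Against female cultures alone it was 833 of 14317 genes, and with 1 primary culture left out 1893 to 2094 of 14409 to 14451. The number called higher was 0 against female cultures alone and 0 to 1 with 1 library left out. Without PMC-303 the member called higher was Pim1. In PMC-306 between 1 and 3 members lay at least 2-fold lower with 1 primary culture left out, beside 1197 to 1256 of 13034 to 13081 genes. Pim1 was at 1.10 without PMC-303 and turned to -0.11 without PMC-306.

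Sex differences, none of them called, changed sign with 1 culture left out, over ranges of -0.32 to 0.093 for Il3ra, -0.031 to 1.52 for Il5ra, -0.052 to 0.15 for Jak2, -0.0070 to 0.21 for Stat5a, -0.16 to 0.32 for Cish and -0.24 to 0.11 for Pim1, which was at 0.051 with TPM. With the replicate number as a block 5 genes and 0 members differed by sex. Same-numbered cultures correlated at 0.405, -0.216 and 0.284, so the numbers were not taken to pair them. Leaving out libraries for the within-library ratios was added after seeing the data. The line to primary ratio of the Il5ra share, 7.09, was 11.7 without female culture 3, and that of Pim1 to Cish, 2.43, was 2.97 without PMC-303 and 1.88 without PMC-306. In the primary cultures Il5ra (25 to 221 counts) and Csf2ra (172 to 292 counts) rested on the fewest counts of the members. Counting adds to their spread, and its part was not tested.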
